A study of Homo sapiens with 11 samples.

Results

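The integrin and laminin subunit genes were taken by symbol from the annotation of the array, as every gene for an integrin alpha chain, an integrin beta chain or a laminin chain that had a probe set of its own. The rule gave 35 genes (18 integrin alpha, 7 integrin beta and 10 laminin genes, with 95 probe sets) out of 19775 genes on the array. The data were 11 Affymetrix arrays (HG-U133 Plus 2) of RNA from A673sh cells, derived from the Ewing sarcoma (ES) line A673. These cells carry a doxycycline-inducible shRNA against EWS-FLI1, the fusion transcription factor that drives this tumour. In 4 groups of 2 arrays each, the cells were transiently transfected with a pRetro-Super plasmid for a scrambled shRNA or for an shRNA against FOXO1, and were left without doxycycline or given 1.0 µg/ml for 48 h. These groups are called sh-scrambled and sh-FOXO1, each without or with dox. In 3 further groups of 1 array each, without doxycycline, the cells were transfected with empty pCDNA3 vector, with FLAG-FOXO1 resistant to phosphorylation by AKT (T24A, S256A and S319A) or with FLAG-FOXO1 resistant to phosphorylation by CDK2 (S249A and S298A). All arrays thus came from the same inducible line. No array had doxycycline without the EWS-FLI1 shRNA, so an effect of the drug and an effect of losing EWS-FLI1 cannot be told apart. The FOXO1 shRNA sequence is not named in the labels, nor whether replicates were separate cultures, so p-values measure the spread between these arrays, which may be technical.

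Integrins are cell surface receptors made of 1 alpha and 1 beta chain, which bind the extracellular matrix outside the cell and the actin skeleton inside it. The alpha chain largely sets the ligand: some recognise collagens, some laminins, some fibronectin, vitronectin and other proteins with an RGD motif, and others ligands on leukocytes and endothelium. Laminins are secreted trimers of an alpha, a beta and a gamma chain, and are main components of basement membranes. In ES cells, silencing of EWS-FLI1 is known to flatten the cells and to raise adhesion. FOXO1 is a forkhead transcription factor that AKT and CDK2 keep out of the nucleus or inactive by phosphorylation.

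The targeted genes moved in the direction of the labels, though not equally in both shRNA backgrounds. FLI1, whose 3' part is in the fusion, was at log2 levels of 8.84 and 8.71 in sh-scrambled cells and 6.92 and 6.93 with dox (log2 fold change -1.85, limma adjusted p = 1.59e-06). In sh-FOXO1 cells FLI1 went from 8.84 and 8.56 to 7.17 and 7.25 (-1.49, adjusted p = 6.7e-06). Its levels with dox thus stayed above those of sh-scrambled cells, and the difference of the falls was 0.37 (adjusted p = 0.174). FOXO1 was at 7.35 and 7.04 in sh-scrambled cells with dox and at 5.76 and 5.75 in sh-FOXO1 cells with dox (-1.44, adjusted p = 0.000136). Without dox its level was 5.86 and 5.81 against 4.97 and 4.80 (-0.95, adjusted p = 0.000745), and it was 8.30 and 7.06 on the AKT-resistant and CDK2-resistant arrays against 5.84 with empty vector. FOXO1 still rose with dox in sh-FOXO1 cells, by 0.86 (adjusted p = 0.000257), to about its level in sh-scrambled cells without dox. All 6 Ewing sarcoma markers were detected, and 5 of them fell with dox in both shRNA backgrounds (median -1.83 in sh-scrambled cells). Of the markers of other cell types, 0 of 6 for blood cells, 0 of 4 for epithelium, 1 of 3 for platelets and 2 of 4 for endothelium were detected, and none of the detected ones of other cell types was called in any tested comparison. Detected means at or above the 60th percentile of all probe sets on at least 1 array. In these bulk RNA samples a change in the share of cells that express a gene and a change in RNA per cell cannot be told apart.

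Of the 35 genes, 26 were detected (12 integrin alpha, 7 integrin beta and 7 laminin genes), each followed through its detected probe set with the largest spread over the arrays. That spread includes the dox arrays, so the rule favours probe sets that changed with dox. The other 9 were ITGA3 and ITGA10, which code for a laminin and a collagen receptor, the leukocyte alpha chains ITGAD, ITGAL, ITGAM and ITGAX, and the laminin chains LAMA1, LAMB4 and LAMC3. On the brightest probe set of each, levels stayed between 3.96 and 5.69 on all 11 arrays, and none was called in any limma comparison when the detection filter was dropped. The probe set followed reached the 60th percentile on dox arrays only for 8 genes (ITGA1, ITGA4, ITGA8, ITGA9, ITGB3, ITGB5, ITGB8 and LAMA4). For 4 of these (ITGA1, ITGA9, ITGB3 and ITGB8) the same held for every detected probe set, so they entered the test because they were high there, and counts among detected genes overstate the share that rose. The other 4 had a further probe set that reached that level on arrays without dox too. For ITGA8 and LAMA4 that probe set changed by -0.02 and 0.14 with dox in sh-scrambled cells. The calls of these genes thus also rest on probe sets that were high on dox arrays only. ITGB6 was left out because its probe sets carry a second gene symbol, and further subunits were not analysed here.

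The first comparison asked which of these genes moved when EWS-FLI1 was silenced in sh-scrambled cells. In all, 12 of the 35 genes rose past a log2 fold change of 1 (a 2-fold change) at a limma adjusted p under 0.05 and 0 fell, whereas over the 12326 genes tested 8.1% rose and 7.49% fell. The genes that rose were 8 integrin genes (ITGB8, ITGA1, ITGA4, ITGAV, ITGA8, ITGA11, ITGB1 and ITGA2) and 4 laminin genes (LAMA4, LAMB3, LAMC1 and LAMB1). Over all 35 genes without the filter, the median log2 fold change was 0.55, beside -0.04 over the 19775 genes, and 27 of the 35 lay above 0. No leukocyte-type alpha chain was called, nor were ITGA6 and ITGA7, the detected chains grouped here as laminin receptors.

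The collagen receptor alpha chains ITGA1, ITGA2 and ITGA11, which pair with ITGB1, all rose, and the remaining one, ITGA10, was not detected. ITGA1 was at 3.16 and 3.43 in sh-scrambled cells and at 7.24 and 7.24 with dox, a change of 3.95 (SE 0.11, 15.4-fold, adjusted p = 6.14e-08). Its levels without dox were below the lower quartile of the array, where a probe set measures little more than background, so the size of the fold is uncertain. A second detected probe set of ITGA1 gave 3.84. ITGA11 went from 5.71 and 5.51 to 7.72 and 7.64 (2.07, SE 0.10, adjusted p = 6.96e-07), although its other probe set gave 0.35. ITGA2 went from 5.33 and 5.27 to 6.54 and 6.35 (1.15, SE 0.13, adjusted p = 0.000101). That rise was near the limit, and the other ITGA2 probe set gave 0.29.

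Among the RGD receptor alpha chains, ITGAV and ITGA8 rose. ITGAV, the partner of several beta chains in vitronectin and fibronectin receptors, was high on every array and rose from 9.24 and 9.47 to 11.76 and 11.75 (2.40, SE 0.09, 5.28-fold, adjusted p = 2.59e-07). ITGA8, a receptor chain for nephronectin and fibronectin, moved from 4.17 and 4.29 to 6.57 and 6.59 (2.34, SE 0.09, adjusted p = 2.77e-07). A second ITGA8 probe set gave 2.10, and a further one, of a type that can cross-hybridise, gave -0.02. ITGA5, the classical fibronectin receptor chain, had 8.16 and 8.02 without and 9.24 and 8.81 with dox, which is 0.93 (SE 0.17) and short of the limit. ITGA2B, the platelet chain, had -0.04.

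ITGA4, which binds VCAM1 and fibronectin, rose on all 4 of its detected probe sets, by 2.46 to 3.10. On the one followed here it was at 4.20 and 4.09 and then at 7.17 and 7.31 (3.10, SE 0.09, 8.55-fold, adjusted p = 6.66e-08). Its close relative ITGA9 had 0.42. The laminin receptor chains ITGA6 and ITGA7 had 0.49 and -0.22, and ITGAE, the chain that binds E-cadherin and the only detected leukocyte-type alpha chain, had -0.35.

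ITGB8, a partner of ITGAV that binds latent TGF-beta, showed the largest difference of the 26 genes. Its levels were 3.22 and 3.19 in sh-scrambled cells and 8.49 and 8.73 with dox (5.41, SE 0.14, 42.4-fold, adjusted p = 3.73e-08). The low values again lie below the lower quartile of the array, and the other detected ITGB8 probe sets rose by 1.99 and 1.08, so the fold depends strongly on the probe set. ITGB1, the common partner of the collagen, laminin and fibronectin receptor chains, was high throughout, at 10.37 and 10.67 and then 11.65 and 11.71 (1.16, SE 0.12, 2.23-fold, adjusted p = 5.39e-05). Its other probe sets gave 1.04 and 0.73, the latter short of the limit. The further ITGAV partners ITGB5 and ITGB3 had 0.71 and 0.55, and ITGB4, the partner of ITGA6 in hemidesmosomes, had -0.05. ITGB2 and ITGB7, beta chains of leukocytes, had -0.89 and 0.02.

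Of the laminin chains, the alpha chain LAMA4, the beta chains LAMB1 and LAMB3 and the gamma chain LAMC1 rose. LAMA4, found in vessel and muscle basement membranes, was at 3.58 and 3.48 without and 7.12 and 7.34 with dox (3.70, SE 0.13, 13-fold, adjusted p = 1.71e-07). Its low values, too, were below the lower quartile of the array, and its other detected probe sets gave 0.97 and 0.14. LAMC1, the gamma chain of most laminins, went from 9.37 and 9.54 to 11.45 and 11.36 (1.95, SE 0.09, adjusted p = 5.93e-07), and LAMB1 from 9.43 and 9.69 to 11.10 and 11.17 (1.58, SE 0.10, adjusted p = 3.35e-06). Second probe sets of LAMC1 and LAMB1 rose by 1.12 and 1.33. LAMB3, a chain of the epithelial laminin of hemidesmosomes, went from 5.92 and 5.78 to 8.11 and 7.89 (2.15, SE 0.10, adjusted p = 7.09e-07). LAMA5, LAMB2 and LAMA2 had 0.88, 0.71 and -0.02. For each of the 12 called genes both dox arrays were above both arrays without dox. The calls came from these same arrays, so this adds no support. ITGA2B, not called at -0.04, did not overlap between these groups either.

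In sh-FOXO1 cells, dox raised 13 of the 35 genes and lowered 1, beside 7.27% and 6.38% of all genes tested. This comparison shared no array with the one in sh-scrambled cells. The 12 genes that rose in sh-scrambled cells all rose here, and ITGB3 was added. That is the whole of the first list and 92.3% of this one. Both comparisons used the same EWS-FLI1 shRNA, and the overlap over all genes was not computed. The overlap is therefore not read as a trait of these genes. Just short of the limit were ITGA6 (1.0) and ITGB5 (0.99). The brighter probe set of ITGA6, a laminin receptor chain, rose by 1.30 and was called in the fit of all probe sets. Other ITGB5 probe sets gave -0.35 to 0.51. Over all 35 genes without the filter the median was 0.40, beside -0.04 over all genes.

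Of the collagen receptor chains in sh-FOXO1 cells, ITGA1 was at 3.18 and 3.27 without and at 6.53 and 6.79 with dox (3.44). ITGA2 had the larger change of the other 2, from 5.46 and 5.07 to 8.17 and 8.15 (2.89), with 1.22 on its other probe set. ITGA11 went from 5.64 and 5.83 to 7.55 and 7.59 (1.83), while its other probe set gave 0.18 and was not called. ITGB1, their common partner, went from 10.49 and 10.66 to 11.84 and 12.01 (1.35). Its other probe sets gave 1.29 and 0.88, the latter not called. For these collagen receptor chains and ITGB1 the groups without and with dox stood apart on the probe sets followed, as such calls nearly require. ITGAV was at 9.20 and 9.18 and then at 11.78 and 11.91 (2.65), and ITGB8 at 4.42 and 4.83 and then at 9.35 and 9.50 (4.80). The other ITGB8 probe sets gave 2.91 and 1.63. The VCAM1 receptor chain ITGA4 moved from 4.16 and 4.09 to 7.22 and 7.40 (3.19). ITGA8 moved least of the RGD receptor chains that were called, from 4.25 and 4.42 to 5.67 and 5.83 (1.41). Its other probe sets gave 1.07 and, on the one that can cross-hybridise, -0.16.

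The laminin chains that rose were those of the comparison in sh-scrambled cells. LAMA4 was at 3.60 and 3.59 in sh-FOXO1 cells and at 7.85 and 8.24 with dox (4.45). Without dox these levels were below the lower quartile of the array, and the other detected LAMA4 probe sets gave 1.49 and 0.48, the latter not called. LAMC1 went from 9.77 and 9.60 to 11.45 and 11.45 (1.77, with 0.81 and no call on its other probe set), and LAMB1 from 9.63 and 9.70 to 10.82 and 10.93 (1.21). LAMB3 went from 6.37 and 6.32 to 7.98 and 7.81 (1.55). No laminin chain fell past the limit.

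ITGB3, the beta chain of the vitronectin receptor and of the platelet fibrinogen receptor, was at 4.23 and 4.29 in sh-FOXO1 cells and at 6.22 and 6.35 with dox (2.03, SE 0.08, 4.08-fold, adjusted p = 3.55e-07). Its other probe set gave a smaller change of 0.56. ITGB2, the common beta chain of leukocyte integrins, was the gene that fell, from 6.02 and 5.91 to 4.76 and 4.80 (-1.19, SE 0.09, adjusted p = 9.04e-06). In sh-scrambled cells its levels of 6.02 and 5.82 without and 5.04 and 5.02 with dox did not overlap either, although the difference missed the limit of 1. ITGB2 went down while the blood cell markers were not detected on any array, and its brightest probe set, of a type that can cross-hybridise, gave 0.04. The remaining detected ITGB2 probe set gave -0.37 here and -0.57 in sh-scrambled cells, neither called.

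**Figure D1:**
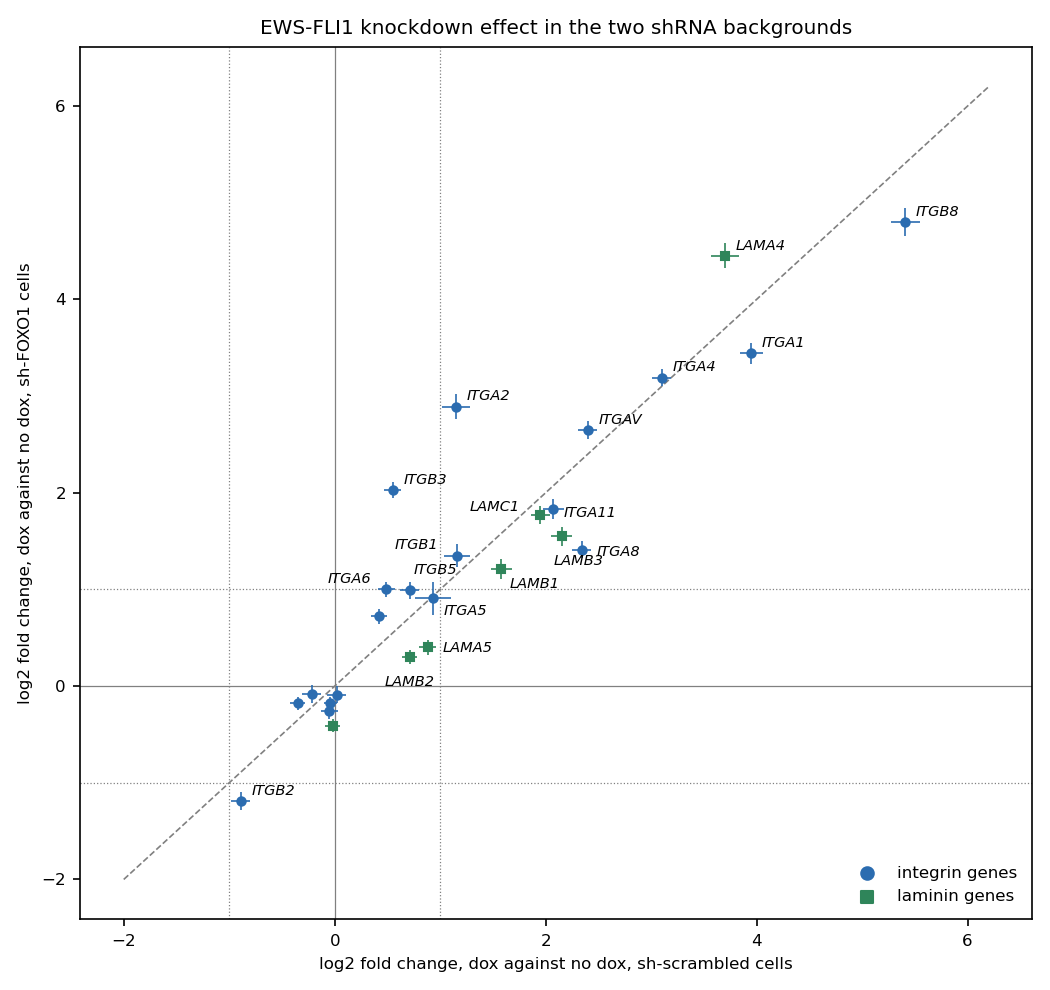
Log2 fold change of each of the 26 detected genes with dox against without dox, in sh-scrambled cells (horizontal axis) and in sh-FOXO1 cells (vertical axis), with bars of 1 SE, circles for integrin and squares for laminin genes, dotted lines at the limit of 1 and a dashed line of equal change. ITGA2 at 1.15 and 2.89 and ITGB3 at 0.55 and 2.03 stand above the dashed line, and ITGA8 at 2.34 and 1.41 stands below it.

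The next question was whether FOXO1 shRNA changed these genes. In cells with dox, 4 of the 35 genes were higher in sh-FOXO1 than in sh-scrambled cells (ITGA2, ITGB3, LAMA4 and ITGB8) and 1 was lower (ITGA8), past a log2 fold change of 0.7 (1.62-fold) at an adjusted p under 0.05. Over all genes tested 3.08% were higher and 2.37% lower. The median over the 35 genes without the filter was -0.05, beside 0.01 over all genes, so these 5 genes moved without a shift of the group. All of them were also called higher with dox in sh-FOXO1 cells. That comparison uses the same sh-FOXO1 arrays with dox. A high level there favours both calls for ITGA2, ITGB3, LAMA4 and ITGB8, so the overlap is not a separate result.

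The promoters of these genes other than ITGB3, which no RefSeq window matched, are shown because FOXO1 and EWS-FLI1 bind short DNA motifs. Each is the stretch of 250 bases before the annotated start in RefSeq (GRCh38.p14), in the direction of transcription. Capitals mark the forkhead core, AAACA read on either strand, and the core of ETS factors such as FLI1, GGAA read on either strand. ITGA2 lies at chr5:52989102-52989351 on the plus strand, ITGA8 at chr10:15719923-15720172 on the minus strand, ITGB8 at chr7:20330650-20330899 on the plus strand and LAMA4 at chr6:112254568-112254817 on the minus strand.
ITGA2: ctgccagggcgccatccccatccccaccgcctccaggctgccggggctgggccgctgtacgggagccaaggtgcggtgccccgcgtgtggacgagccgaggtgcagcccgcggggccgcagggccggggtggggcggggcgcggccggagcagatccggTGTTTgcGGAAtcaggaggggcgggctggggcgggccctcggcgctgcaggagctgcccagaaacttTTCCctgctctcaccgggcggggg
ITGA8: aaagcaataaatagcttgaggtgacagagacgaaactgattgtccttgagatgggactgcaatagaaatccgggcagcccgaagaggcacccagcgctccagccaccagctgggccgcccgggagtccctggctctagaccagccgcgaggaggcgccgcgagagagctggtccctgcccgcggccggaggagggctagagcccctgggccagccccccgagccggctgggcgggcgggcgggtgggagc
ITGB8: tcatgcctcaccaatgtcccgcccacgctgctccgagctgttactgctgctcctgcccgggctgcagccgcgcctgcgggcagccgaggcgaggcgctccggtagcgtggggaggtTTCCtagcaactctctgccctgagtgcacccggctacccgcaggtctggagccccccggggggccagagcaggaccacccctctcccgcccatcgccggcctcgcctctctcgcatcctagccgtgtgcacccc
LAMA4: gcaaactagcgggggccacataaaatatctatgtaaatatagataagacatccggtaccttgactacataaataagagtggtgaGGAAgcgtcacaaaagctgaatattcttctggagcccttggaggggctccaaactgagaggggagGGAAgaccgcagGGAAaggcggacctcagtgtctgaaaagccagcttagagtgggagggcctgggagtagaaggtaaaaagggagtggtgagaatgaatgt

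Among these windows, that of ITGA2 holds 1 forkhead core and 2 GGAA cores, that of ITGB8 0 and 1, that of LAMA4 0 and 3, and that of ITGA8 neither. The GC content was 76.4% for ITGA2, 71.2% for ITGB8, 68.0% for ITGA8 and 48.4% for LAMA4. RefSeq windows matched 24 of the 35 genes. The forkhead core was in 9 of these 24 (ITGA2, ITGA6, ITGA10, ITGAE, ITGAM, ITGB1, LAMB1, LAMB3 and LAMB4) and in 40.4% of all 35116 windows. The longer FOXO motif GTAAACA, which contains that core, was in 0 of the 24 and in 2.98% of all windows. GGAA was in 23 of the 24 and 92.7% of all windows, and the longer ETS motif CCGGAAG, which contains it, was in ITGA6, ITGB5 and LAMA5 and in 8.52% of all windows. Such matches describe the letters only, and both strands were searched.

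ITGA2, the collagen receptor chain whose promoter is first above, differed most. With dox it was at 6.54 and 6.35 in sh-scrambled cells and at 8.17 and 8.15 in sh-FOXO1 cells, a difference of 1.71 (SE 0.13, 3.27-fold, adjusted p = 0.00012). Without dox it was at 5.33 and 5.27 against 5.46 and 5.07, so the groups overlapped there. The rise with dox was therefore larger in sh-FOXO1 than in sh-scrambled cells by 1.75 (SE 0.18, adjusted p = 0.00121), a difference that was tested as such. The other ITGA2 probe set gave smaller values in the same direction, 0.80 for FOXO1 shRNA with dox and 0.94 for the difference of the rises.

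ITGB3 behaved alike. Its levels with dox were 4.78 and 4.66 in sh-scrambled and 6.22 and 6.35 in sh-FOXO1 cells (1.57, SE 0.08, 2.96-fold, adjusted p = 3.68e-05), and those without dox were 4.15 and 4.18 against 4.23 and 4.29. The rises with dox differed by 1.48 (SE 0.11, adjusted p = 0.000369). Only the 2 sh-FOXO1 arrays with dox reached the detection limit for this gene, and its second probe set gave 0.54 for FOXO1 shRNA with dox, short of the limit of 0.7, and 0.35 (adjusted p = 0.107) for the difference of the rises, which was not called.

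LAMA4 and ITGB8 were higher by smaller amounts. LAMA4 was at 7.12 and 7.34 in sh-scrambled and 7.85 and 8.24 in sh-FOXO1 cells with dox (0.82, SE 0.13, adjusted p = 0.00304), with other probe sets at 0.54 and 0.44. Without sh-FOXO1 with dox replicate 2 the LAMA4 difference was 0.62 and no longer called. Its rises with dox differed by 0.75 (SE 0.18, adjusted p = 0.0485), close to the threshold, and that call was lost on leaving out any 1 of the 8 shRNA arrays other than sh-FOXO1 with dox replicate 1, with values of 0.56 to 0.86. Without that array it was 0.95 and kept. The call was also lost without the detection filter and with an intensity trend in the variance prior, and the other LAMA4 probe sets gave 0.52 and 0.34, neither called. ITGB8 was at 8.49 and 8.73 in sh-scrambled and 9.35 and 9.50 in sh-FOXO1 cells with dox (0.81, SE 0.14, adjusted p = 0.00429), which became 0.69 and was not called without sh-scrambled with dox replicate 1.

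ITGA8 went the other way. With dox it was at 6.57 and 6.59 in sh-scrambled cells and at 5.67 and 5.83 in sh-FOXO1 cells (-0.82, SE 0.09, adjusted p = 0.000607), while without dox it was at 4.17 and 4.29 against 4.25 and 4.42. Its rise with dox was smaller in sh-FOXO1 cells by 0.93 on the log2 scale (difference -0.93, SE 0.13, adjusted p = 0.00521). A second probe set gave -0.85 for FOXO1 shRNA with dox and -1.03 for the difference of the rises, and the one that can cross-hybridise gave -0.15 for each.

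Without dox, 1 of the 35 genes was called for FOXO1 shRNA, beside 3.45% of all genes higher and 2.33% lower. It was ITGB8, at 3.22 and 3.19 in sh-scrambled and 4.42 and 4.83 in sh-FOXO1 cells (1.42, SE 0.14, 2.68-fold, adjusted p = 0.000359). All 4 values were below the detection limit of the filter, and the other ITGB8 probe sets gave 0.28 and 0.05, so this call rests on 1 probe set at low signal. The difference of its rises with dox was -0.61 (adjusted p = 0.113) on this probe set and 0.91 and 0.54 on the others, so the direction for ITGB8 is not settled. In all, 4 of the 35 genes were called for the difference of the rises (ITGA2, ITGB3 and LAMA4 upward and ITGA8 downward), beside 3.91% of all genes in either direction.

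Further members had an adjusted p under 0.05 for FOXO1 shRNA with dox without reaching the limit of 0.7. ITGA6, the laminin receptor chain, had 0.63, and its brighter probe set had 1.02 and a difference of the rises of 0.92, both called in the fit of all probe sets. ITGA9 had 0.42 and ITGA7 0.31, whereas ITGA1, LAMB2 and LAMA5 had -0.58, -0.53 and -0.48. Both ITGA1 probe sets were alike, at -0.58 and -0.55. ITGAV, ITGB1, ITGA4, ITGA5, LAMC1 and LAMB3 had 0.09, 0.25, 0.07, 0.02, 0.04 and -0.11 on the probe sets followed, and none of these passed the test. In the fit of all probe sets, another probe set of ITGA4 (0.50), LAMC1 (0.38) and ITGB1 (0.20) had an adjusted p under 0.05, short of the limit. The remaining ITGA4 probe sets had 0.11 and -0.08.

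**Figure D2:**
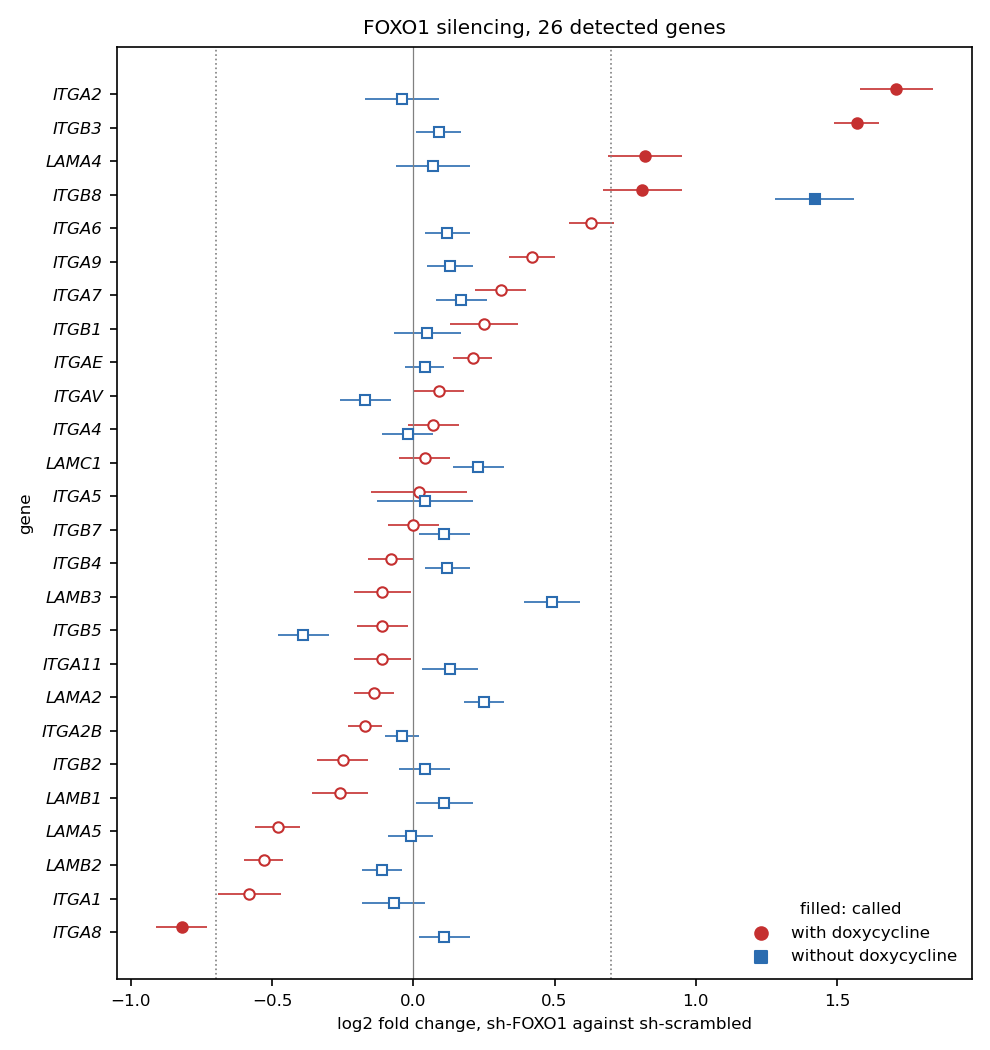
Log2 fold change of sh-FOXO1 against sh-scrambled cells (horizontal axis) for the 26 detected genes (vertical axis), with dox (red circles) and without (blue squares), bars of 1 SE, filled symbols for called genes and dotted lines at 0.7 either way. With dox, ITGA2 (1.71) and ITGB3 (1.57) lie far to the right and ITGA8 (-0.82) to the left, and without dox ITGB8 (1.42) is the filled square.

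The last comparison set FOXO1 that resists phosphorylation by AKT or by CDK2 against empty vector, in cells with EWS-FLI1 and without dox. Each group was 1 array, so the differences have no replicate check and no test. On the AKT-resistant array 1 of the 35 genes was past 0.7, ITGA2, beside 1.69% of all genes higher and 1.51% lower. ITGA2 was at 6.50 on that array, at 5.04 with empty vector and at 4.97 with CDK2-resistant FOXO1, and at 5.07 to 5.46 on the 4 shRNA arrays without dox. It was thus higher than on every other array without dox, by 1.46 over empty vector, while its other probe set gave 0.59. ITGA2 was therefore higher on the array with AKT-resistant FOXO1 as well as with FOXO1 shRNA plus dox. On the probe sets followed, the next largest differences upward were those of ITGA11 (0.61), ITGB8 (0.60), LAMA4 (0.58) and ITGAV (0.51), and downward those of LAMA2 (-0.46) and ITGB2 (-0.40). Other probe sets gave 0.14 for ITGA11, -0.30 and -0.21 for ITGB8, -0.10 and 0.29 for LAMA4 and 0.14 for LAMA2, so the direction was not the same on all probe sets of ITGB8, LAMA4 and LAMA2. A further ITGB5 probe set, of a type that can cross-hybridise, had -0.78.

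Apart from ITGA2, the genes that rose with dox were lower on each plasmid array than on any array where they had risen. For empty vector, AKT-resistant and CDK2-resistant FOXO1 in that order, ITGA1 was at 3.36, 3.73 and 3.89 and ITGA4 at 4.30, 4.47 and 4.02. ITGB8 was at 4.36, 4.96 and 3.85 and LAMA4 at 3.45, 4.03 and 3.79. ITGA8 was at 4.21, 4.20 and 4.44 and ITGB3 at 4.05, 3.79 and 4.09. The probe sets followed for these 6 genes were below the 60th percentile on all plasmid arrays, and each was below its own level on every array with dox. Brighter probe sets of ITGA4 and LAMA4 were above that percentile there, at 6.08, 6.44 and 5.92 for ITGA4 and at 6.0, 6.30 and 5.93 for LAMA4. ITGAV was at 8.99, 9.50 and 9.11, ITGB1 at 10.46, 10.72 and 10.54 and ITGA11 at 5.15, 5.76 and 5.56. LAMC1 was at 8.76, 8.72 and 9.12, LAMB1 at 9.30, 9.27 and 9.31 and LAMB3 at 6.86, 7.03 and 6.30. ITGB2, the gene that fell with dox, was at 5.43, 5.03 and 5.87, which spans the range between its shRNA arrays without and with dox.

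On the CDK2-resistant array LAMA5 was past the limit upward and LAMA2 downward, beside 1.73% and 1.54% of all genes. LAMA5, a widely expressed laminin alpha chain, was at 6.82 against 5.99 with empty vector (0.84), and at 6.97 to 7.03 on the 4 shRNA arrays without dox. LAMA2, a laminin alpha chain of muscle, was at 5.08 against 6.0 (-0.92), and at 4.92 to 5.26 on the same 4 arrays, with -0.15 on its other probe set. Past 0.7 were also single probe sets of genes whose followed probe set was not. The brighter ITGA1 probe set was at 5.34 against 4.10 with empty vector (1.24), while the one followed had 0.52. A probe set of ITGA4 had -0.92 and one of ITGB5, of the cross-hybridising type, had -0.80. The AKT-resistant array was at 6.0 for LAMA5 and 5.53 for LAMA2. For LAMA5 the empty vector and AKT-resistant arrays thus lay together, below the CDK2-resistant and shRNA arrays, and for LAMA2 both lay above these. The empty vector array differed from the mean of the sh-scrambled arrays without dox by more than 0.7 for 13.9% of all genes, and for 4 of the 35: ITGB8 (1.15), LAMA2 (1.04), LAMB3 (1.01) and LAMA5 (-1.02). With empty vector and both sh-scrambled arrays averaged as the control, ITGA2 was higher by 1.29 on the AKT-resistant array, ITGB8 and LAMB3 by 1.37 and 0.85, ITGB2 had -0.73, and on the CDK2-resistant array LAMA5 and LAMA2 had 0.16 and -0.22.

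Genes that work with integrins and laminins were counted from 4 lists. Beside their counts stand the shares over all genes tested given above, which were 8.1% higher and 7.49% lower with dox in sh-scrambled cells, 7.27% and 6.38% with it in sh-FOXO1 cells, 3.08% and 2.37% for FOXO1 shRNA with dox, 3.45% and 2.33% without dox, and 3.91% for the difference of the rises. Of 28 other integrin ligands, 23 were detected, 18 rose with dox in sh-scrambled cells and 0 fell, with a median of 3.14 beside -0.06 over all genes tested. They included THBS1 (5.71), POSTN (5.26) and VCAM1 (4.31), a ligand of the integrin that contains ITGA4. In sh-FOXO1 cells 17 rose and 0 fell. FOXO1 shRNA with dox raised 2 of them and lowered 1, among them ADAM12 (0.85) and EDIL3 (-0.90). Without dox it raised 8, and 8 had a smaller rise with dox in sh-FOXO1 than in sh-scrambled cells. Most genes in these last 2 counts were the same. Both comparisons use the arrays without dox, and a high level in sh-FOXO1 cells there favours both calls, so the counts are not separate results. None of the 8 with a smaller rise was called lower for FOXO1 shRNA with dox.

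Of 26 basement membrane partners and other receptors of laminin, 18 were detected, 9 rose in sh-scrambled cells and 0 fell, with a median of 0.90. NID1 (3.61), which links laminin to collagen IV, COL4A1 (2.48), a chain of that collagen, and DMD (3.31), which joins the laminin receptor dystroglycan to actin, were the largest. In sh-FOXO1 cells 8 rose and 1 fell, and FOXO1 shRNA with dox raised 2, NID2 (0.98) and NID1 (0.82). Of 36 integrin adaptors and focal adhesion kinases, 31 were detected, 7 rose in sh-scrambled cells and 1 fell, with a median of 0.44. The largest were TNS3 (2.85), DAB2 (2.14) and TGFB1I1 (1.84). In sh-FOXO1 cells 6 rose and 1 fell. FOXO1 shRNA with dox raised 2, PTK2 (1.33), the focal adhesion kinase, among them, and lowered 1, FERMT2 (-0.79), a kindlin that activates integrins. PTK2 was also called higher without dox (1.19), and its difference of the rises was 0.15. Of 19 membrane partners of integrins, 18 were detected, and the median was 0.10 in each background. CD82 (2.08), CD47 (1.53) and PLAUR (1.38) rose in sh-scrambled cells, and the same 3 genes did so with FOXO1 shRNA. A different gene fell in each, EMP2 in sh-scrambled cells (-1.12) and TSPAN8 in sh-FOXO1 cells (-1.98), where EMP2 had -0.85. EMP2 was named after its value was seen. FOXO1 shRNA with dox raised CD53 (0.71) and lowered TSPAN8 (-1.13) among these. CD53 was also called higher without dox (0.91), whereas TSPAN8 had 0.16 there.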

How the data were processed

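RNA of A673sh cells was hybridised to 11 Affymetrix arrays in 7 groups, 4 of 2 arrays and 3 of 1. The authors deposited summarised, normalised values per probe set, on a log scale whose base is not stated and was taken as log2 from the range. The sources used here do not give the normalisation. Probe sets with 1 gene symbol (41097 of 54675) were kept if any array had them in its top part, from the 60th percentile up, and each gene was read from its probe set of largest interquartile range, which gave 12326 genes. limma 3.58.1 (R 4.3.3) was fitted to all 11 arrays in 7 groups, with 4 residual and 3.9 prior degrees of freedom, and Benjamini-Hochberg adjustment over all genes. A call required adjusted p under 0.05 together with a log2 fold change beyond 1 (EWS-FLI1 knockdown) or 0.7 (FOXO1 and the difference of knockdown effects). Single arrays were compared by log2 difference, without a test. Values of other probe sets came from a fit of all probe sets. The script was tested on simulated data. Precision is limited by the number of arrays.

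All member genes were named, and those called, or past 0.7 on a single array, were given with their array values. From each related list, the 3 largest calls for knockdown in sh-scrambled cells and the 2 largest for FOXO1 shRNA with dox were named. The members and lists were chosen with earlier results of these data known. Alternatives were other scalings, filters, probe set rules, variance priors, call limits, controls, a replicate block, the shRNA arrays alone and leaving out each array.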

Additional observations from a re-analysis of the deposited data

Results flagged for a closer look

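The effect of EWS-FLI1 knockdown differed between sh-FOXO1 and sh-scrambled cells, by a limma test of the difference itself, for 4 integrin and laminin genes. The log2 rise with dox was larger in sh-FOXO1 cells by 1.75 for ITGA2, by 1.48 for ITGB3 and by 0.75 for LAMA4, and the difference was -0.93 for ITGA8. In cells with dox, the sh-FOXO1 and sh-scrambled levels did not overlap for any of the 4 genes. The genes were picked by a test on these same arrays, so this adds no support. ITGB4, not called at -0.08 for FOXO1 shRNA with dox, did not overlap there either. For ITGB3 only the sh-FOXO1 arrays with dox reached the detection limit. Leaving out any 1 of 7 of the 8 shRNA arrays ended the call for LAMA4. Other probe sets of the genes gave 0.94 for ITGA2 (called), 0.35 for ITGB3, 0.52 and 0.34 for LAMA4 (none of these called), and -1.03 (called) and -0.15 (not called) for ITGA8.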

How the results depend on the processing

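Counts of integrin and laminin genes called kept within 1.5 times of the reported ones for both scalings, the variance trend and the fit of the shRNA arrays alone. With no fold limit, knockdown in sh-scrambled cells gave 19 genes higher and 2 lower, knockdown in sh-FOXO1 cells 4 lower, FOXO1 shRNA with dox 7 higher and 4 lower and without dox 3 higher and 1 lower, and the difference of the rises 7 genes. With the brightest probe set per gene, knockdown in sh-FOXO1 cells gave 0 lower, FOXO1 shRNA with dox 0 lower, the difference 2, and the CDK2-resistant array 2 higher and 0 lower. With the mean of the probe sets, and likewise with an 80th percentile filter, the first 2 of these were 0 lower and the CDK2-resistant array gave 2 higher and 0 lower. The mean of the probe sets also left 0 higher for FOXO1 shRNA without dox. With no filter the AKT-resistant array gave 1 lower. Against the mean of 3 control arrays the AKT-resistant array gave 3 higher and 1 lower and the CDK2-resistant array 0 higher and 0 lower, as the latter did with a limit of 1 (0 and 0).

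Leaving out each shRNA array in turn gave 12 to 13 higher and 0 lower for knockdown in sh-scrambled cells, 13 to 15 higher and 1 lower in sh-FOXO1 cells, 3 to 4 higher and 1 to 2 lower for FOXO1 shRNA with dox, 1 and 0 without dox, and 3 to 4 for the difference. The direction turned with the brightest probe set for ITGA8 (-0.02 for knockdown in sh-scrambled cells and -0.16 for that in sh-FOXO1 cells) and for ITGB2 in sh-FOXO1 cells (0.04), and with the mean of the probe sets for the ITGB8 difference (0.28). These settings use other probe sets of the gene.

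A replicate block in the fit gave counts of 12 and 0, 13 and 1, 4 and 1, 1 and 0, and 4, in the order above, so the block changed no count of calls. Replicate numbers share no stated batch, and the correlations of replicate deviations between groups were 0.44 to 0.62.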
